A study of Saccharomyces cerevisiae with 6 samples.

Results

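The genes described here are 42 genes of the ubiquitin system of budding yeast: ubiquitin and its activating enzyme, conjugating enzymes, ligases, deubiquitinases, and the Cdc48 and shuttle factors that take tagged proteins onward. They were taken by symbol from the array's annotation, and 38 of the 42 had a probe, among 5379 named genes in all. Cultures of Saccharomyces cerevisiae strain S288C, the reference laboratory strain, grew exponentially in YPD at 25 °C and were then held for 2 h in 1.8 mM formaldehyde, a reactive aldehyde that crosslinks proteins and DNA. Control cultures of the same strain grew on for 2 h with nothing added. The design gives 3 independent biological samples, each on its own 2-colour array that carried poly(A) RNA of the treated culture in Cy5 and of its control in Cy3, and each array was read at high and at low laser power. The values are log2 ratios that the authors normalised by LOWESS within a scan. Both scans of an array were averaged here, and the 3 arrays are the replicates.

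Ubiquitin is a small protein that cells attach to other proteins. An activating enzyme (E1) charges it, a conjugating enzyme (E2) carries it, and a ligase (E3) chooses the substrate, while deubiquitinases take ubiquitin off again and keep a free pool. Chains of ubiquitin bring most substrates to the proteasome, and the ATPase Cdc48 with its Ufd1 and Npl4 cofactors pulls tagged proteins out of membranes and complexes, after which shuttle proteins can hand them over. In yeast the system is known for clearing short-lived regulators, misfolded proteins and membrane transporters.

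Ratios are read as treated over control. This direction is likely and not stated: the labels place the treated sample in channel 1, and with the opposite direction every higher and lower below would swap. No dye swap was made, so a gene's own dye effect and its response cannot be told apart. Spot intensities were not used here, so signal over background is not known here, and precision is limited by having 3 arrays. Arrays 1, 2 and 3 gave a value for 2498, 3329 and 4292 genes, and Pearson's r between arrays over the 2133 genes on all 3 was 0.886 to 0.948, a correlation across genes, which are not replicates. The median log2 ratio of those 2133 genes was 0.18. It was 0.08 when scans were centred without ribosomal protein genes, so small ratios depend on where zero is set.

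More of the ubiquitin system was higher than lower in formaldehyde. Of the 38 genes with a probe, 23 had a value on all 3 arrays and could be tested, 9 had values on 2 arrays, 5 on 1 array, and UBC11 had none. By limma with Benjamini-Hochberg adjustment over all 2133 genes (adjusted p under 0.05), 14 of the 23 were higher, none was lower and 9 did not pass. Of all tested genes, 62.5% were called, 37.2% higher and 25.3% lower. None of the 23 was lower at an unadjusted p under 0.05 either. All 14 called genes were above 0 on each of the 3 arrays. Of the 14, 9 were at least 2-fold higher, a size that 22.0% of all tested genes reached. The 23 genes had a median log2 ratio of 0.72. A gene entered the test only with a value on all 3 arrays, so these counts describe the members that were measured.

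On the array with most values, array 3, 33 of 36 measured members were above 0, against 2335 of 4292 genes (54.4%). The median on that array was 0.95 for the members and 0.13 for all genes. The 14 members with values on 1 or 2 arrays had a median of 0.72, against -0.15 for the 2546 such genes in all. UBR1, SSM4, TOM1 and UFD4, all ligases, were without a named probe and are not analysed here.

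**Figure D1:**
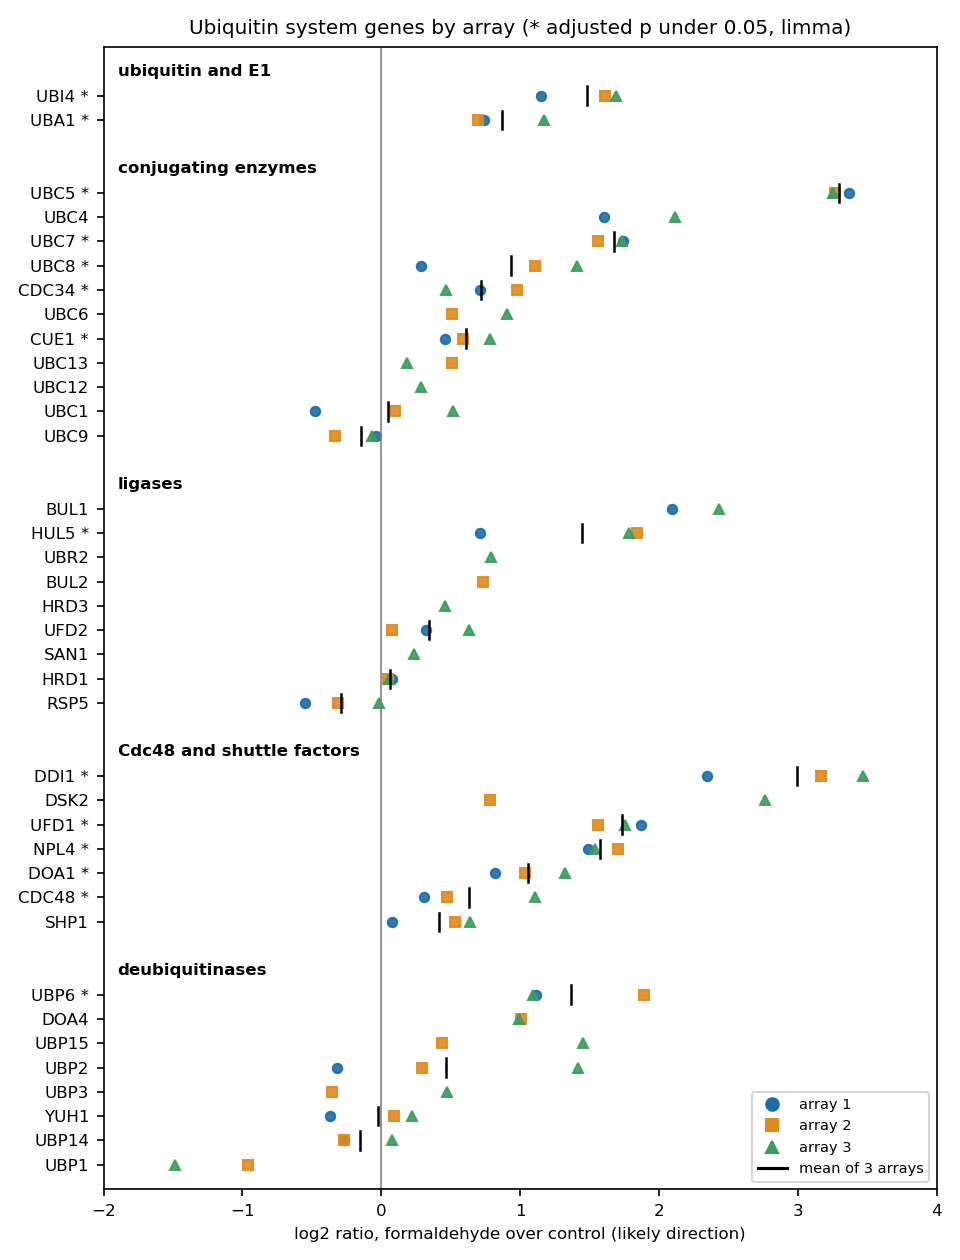
Log2 ratio of formaldehyde over control (x axis, likely direction) for the 37 members with a value, grouped by role and ordered by mean within a role. Symbols are the 3 arrays, black ticks the mean where all 3 gave a value, and stars mark adjusted p under 0.05 among genes on all 3 arrays. UBC5 and DDI1 lie farthest to the right, and UBP1 is the only member below -0.5 on each of its arrays.

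The genes that encode ubiquitin changed in opposite directions. UBI4 (YLL039C), the polyubiquitin gene known as the stress-inducible source, had log2 ratios of 1.15, 1.61 and 1.69 on arrays 1, 2 and 3. All 3 were above 1, and the mean was 1.48 ± 0.29 (SD, n = 3), or 2.79-fold (limma adjusted p = 0.00044). The other ubiquitin genes encode ubiquitin fused to a ribosomal protein. RPS31 had -3.81, -3.60 and -4.04, a mean of -3.82 ± 0.22 (limma adjusted p = 9.33e-06), and RPL40B had -3.17, -2.99 and -3.44, a mean of -3.20 ± 0.23 (limma adjusted p = 1.16e-05). Both fusion genes were thus lower on every array, and UBI4 exceeded RPS31 by 4.96, 5.21 and 5.73 and RPL40B by 4.32, 4.60 and 5.13 on the log2 scale. RPL40A, the copy of RPL40B, was not measured here. All these genes hold the ubiquitin coding sequence, and how much of each spot's signal came from the other genes' cDNA was not measured. Low ratios were not particular to the fusion genes among ribosomal protein genes. As examples named after their values were seen, RPL1B, RPS2, RPL3 and RPL10 had means of -5.03, -4.09, -3.26 and -1.26.

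UBA1 (YKL210W), the E1 enzyme that starts every ubiquitin transfer, was higher by less. Its log2 ratios were 0.74, 0.70 and 1.17, with a mean of 0.87 ± 0.26 (SD, n = 3) or 1.83-fold (limma adjusted p = 0.00463). UBI4 and UBA1 were also read at low power on all 3 arrays. In those scans UBI4 gave 1.08, 1.85 and 1.82, and UBA1 gave 0.70, 0.78 and 1.32.

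**Figure D2:**
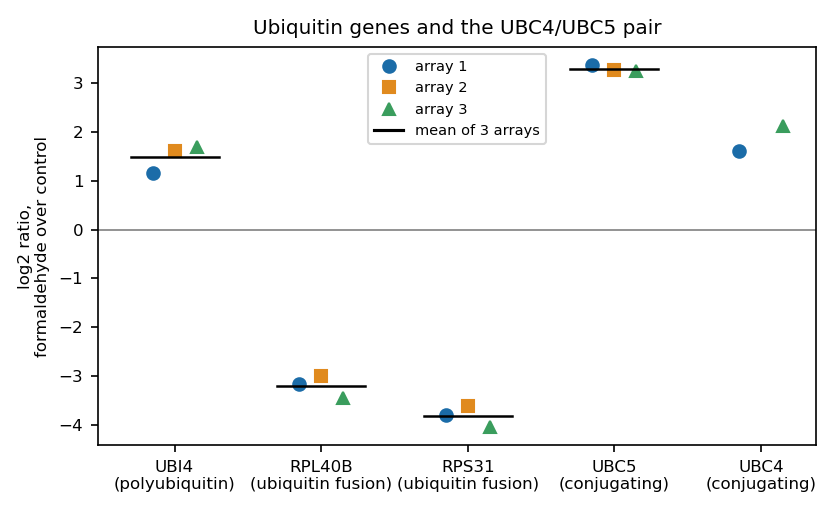
Log2 ratio of formaldehyde over control (y axis) on each array for UBI4, the 2 measured ubiquitin fusion genes, and the conjugating enzymes UBC5 and UBC4; black lines are means of 3 arrays. UBI4 and UBC5 lie above 0 and both fusion genes below -2.9 on all 3 arrays, while UBC4 has values on arrays 1 and 3.

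Among conjugating enzymes, grouped here with the Ubc7 activator CUE1, 5 of 7 tested genes were higher and none was lower. Of all tested genes, 37.2% were higher and 25.3% lower. The 7 genes had a median log2 ratio of 0.72. UBC5 (YDR059C), an E2 for short-lived and abnormal proteins, had the largest ratio of all members: 3.37, 3.27 and 3.25 on arrays 1, 2 and 3. The arrays lay within 0.2 of each other, and the mean of 3.30 ± 0.06 (SD, n = 3) is 9.82-fold (limma adjusted p = 1.02e-05). UBC4 (YBR082C), its close relative with an overlapping role, had 1.60 on array 1 and 2.12 on array 3 and no value on array 2. UBC5 exceeded UBC4 by 1.76 and 1.13 on the log2 scale on those arrays, a difference that was not tested. The genes are similar in sequence, and their cross-hybridisation was not measured.

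UBC7 (YMR022W), an E2 of protein degradation at the endoplasmic reticulum (ER), was higher with 1.74, 1.56 and 1.73, a mean of 1.68 ± 0.10 (limma adjusted p = 0.000134). CUE1 (YMR264W), which anchors and activates Ubc7 at the membrane, had 0.46, 0.59 and 0.78, a mean of 0.61 ± 0.16 (limma adjusted p = 0.0159). Both passed, and UBC7 exceeded CUE1 by 0.95 to 1.28 on each array. UBC6, the membrane-bound E2 of the same process, had 0.51 and 0.91 on arrays 2 and 3. CUE1 did not pass without array 2 (log2 ratio 0.62, adjusted p = 0.0789) or without array 3 (0.52, adjusted p = 0.0814).

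UBC8 (YEL012W), the E2 for gluconeogenic enzymes after glucose is added, varied more between arrays, with 0.29, 1.11 and 1.41. Its mean was 0.94 ± 0.58 (SD, n = 3; limma adjusted p = 0.0127), with array 1 lowest, and it did not pass without array 3 (0.70, adjusted p = 0.0866). CDC34 (YDR054C), the E2 of the SCF ligases (cullin-based ligases that act in the cell cycle), had 0.71, 0.98 and 0.46, a mean of 0.72 ± 0.26 (limma adjusted p = 0.0107). All its arrays were above 0, but without array 2 it did not pass (0.59, adjusted p = 0.0947).

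The other E2 genes had small or single values. UBC1 had -0.48, 0.10 and 0.52, so the arrays went both ways (mean 0.05, 95% interval -0.48 to 0.57). Its mean was -0.19 without array 3 and -0.034 when scans were centred without ribosomal protein genes. UBC9, which conjugates the ubiquitin-like protein SUMO, had -0.03, -0.33 and -0.06 (mean -0.14, 95% interval -0.54 to 0.25). UBC13, which builds chains linked through lysine 63 together with Mms2, had 0.51 and 0.18 on arrays 2 and 3, and UBC12, the E2 of the ubiquitin-like protein Rub1, had 0.28 on array 3.

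Most tested Cdc48 and shuttle factors were higher: 5 of 6 passed upward and none downward, with a median of 1.32. Of all tested genes, 37.2% passed upward and 25.3% downward. DDI1 (YER143W), a shuttle protein with a protease-like domain, had 2.34, 3.17 and 3.47, a mean of 3.00 ± 0.58 (SD, n = 3) or 7.98-fold (limma adjusted p = 5.87e-05). Array 1 was the lowest, and still above every other member but UBC5 on that array. UFD1 (YGR048W) had 1.87, 1.56 and 1.76 (mean 1.73 ± 0.16, limma adjusted p = 0.000131). NPL4 (YBR170C) had 1.49, 1.70 and 1.54 (mean 1.58 ± 0.11, limma adjusted p = 0.000184). These genes encode the partners of the heterodimer that gives Cdc48 its ubiquitinated substrates, and their array values overlapped.

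CDC48 (YDL126C), the ATPase itself, was higher by a smaller amount and less evenly, with 0.31, 0.47 and 1.10. Its mean was 0.63 ± 0.42 (SD, n = 3; limma adjusted p = 0.032), and the lowest ratios of UFD1 and NPL4 were above the highest of CDC48. The call was lost without array 2 (0.71, adjusted p = 0.0518), without array 3 (0.39, adjusted p = 0.159) and when scans were centred without ribosomal protein genes (0.51, adjusted p = 0.0598). DOA1 (YKL213C), a Cdc48 partner needed to keep up free ubiquitin, had 0.82, 1.03 and 1.32, a mean of 1.06 ± 0.25 (limma adjusted p = 0.0018). SHP1, a Cdc48 cofactor related to mammalian p47, had 0.08, 0.53 and 0.64 and did not pass (mean 0.42 ± 0.30, limma adjusted p = 0.0847). Without array 1, its lowest, it passed at 0.59 over 2 arrays (limma adjusted p = 0.0137). That fit leans more on the variance pooled over genes, so its p-values are not comparable with those over 3 arrays. The shuttle DSK2 had 0.79 and 2.76 on arrays 2 and 3, which differ widely, and no value on array 1.

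Few ligases could be tested, and 1 of 4 was higher, where 37.2% of all tested genes were. HUL5 (YGL141W), a ligase that extends chains on proteins bound at the proteasome, had 0.71, 1.84 and 1.78, a mean of 1.45 ± 0.64 (SD, n = 3) or 2.72-fold (limma adjusted p = 0.00229). Array 1 was lower than the other arrays by over 1 on the log2 scale. UFD2, which also lengthens chains, had 0.32, 0.07 and 0.63 (mean 0.34 ± 0.28, limma adjusted p = 0.138). HRD1 (YOL013C), the membrane ligase of ER-associated degradation, had 0.08, 0.05 and 0.05. Its mean was 0.06 ± 0.01 with a 95% interval of -0.31 to 0.43, and the sign turned when scans were centred (-0.010, and -0.046 without ribosomal protein genes). UBC7, which works with Hrd1, exceeded it by 1.51 to 1.68 on each array.

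RSP5 (YER125W), the ligase for plasma membrane transporters, had -0.55, -0.31 and -0.02, all below 0, and did not pass (mean -0.29 ± 0.27, limma adjusted p = 0.192). BUL1, an adaptor that brings substrates to Rsp5, had 2.09 and 2.43 on arrays 1 and 3, whereas its relative BUL2 had 0.73 on array 2. No array measured both adaptors, so their ratios were not compared. On array 3 alone, UBR2, part of the ligase that marks the transcription factor Rpn4 for degradation, had 0.79, HRD3, the partner of Hrd1, had 0.46, and SAN1, a ligase for misfolded nuclear proteins, had 0.23.

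Among deubiquitinases 1 of 4 tested genes was higher and none lower, where 37.2% of all tested genes were higher and 25.3% lower. The 4 had a median of 0.22. UBP6 (YFR010W), which sits on the proteasome and recovers ubiquitin there, had 1.11, 1.89 and 1.09, a mean of 1.37 ± 0.46 (SD, n = 3) or 2.58-fold (limma adjusted p = 0.00129). UBP14, which breaks down free chains, had -0.27, -0.27 and 0.08 (mean -0.15, 95% interval -0.56 to 0.25). YUH1, which processes Rub1, had -0.37, 0.09 and 0.22 (mean -0.02, and 0.15 without array 1). These 2 genes had values on both sides of 0.

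UBP2 (YOR124C), which opposes Rsp5, had -0.32, 0.29 and 1.42, the widest spread among tested members (mean 0.46 ± 0.88, limma adjusted p = 0.243). Its mean was 0.85 without array 1 (limma adjusted p = 0.000576) and -0.014 without array 3, so its direction rests on single arrays. The p-value without array 1 is not comparable with that over 3 arrays. DOA4, which recovers ubiquitin at endosomes, had 1.01 and 0.99 on arrays 2 and 3. UBP15 had 0.43 and 1.45, and UBP3 had -0.36 and 0.47 on the same arrays. UBP1 had -0.96 and -1.49 there, below 0 on both.

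When values on 2 arrays sufficed, 32 members entered the test, 20 were higher and 1 was lower, against 30.3% higher and 24.7% lower among all 3307 genes. The 14 genes called on all 3 arrays were again higher. The 6 added calls upward were UBC4 (1.86 ± 0.36 over 2 arrays, limma adjusted p = 0.000198), BUL1 (2.26 ± 0.24, limma adjusted p = 3.82e-05), DSK2 (1.77 ± 1.40, limma adjusted p = 0.00335), DOA4 (1.00 ± 0.01, limma adjusted p = 0.0082), UBP15 (0.94 ± 0.72, limma adjusted p = 0.0229) and UBC6 (0.71 ± 0.28, limma adjusted p = 0.046). UBP1 was the 1 call downward (-1.22 ± 0.37, limma adjusted p = 0.00328). A gene on 2 arrays leaves 1 residual degree of freedom, so these p-values lean on the variance pooled over genes.

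The role groups can be set side by side over their tested genes. The median on arrays 1, 2 and 3 was 1.15, 1.30 and 1.43 for the Cdc48 and shuttle factors and 0.46, 0.98 and 0.78 for the conjugating enzymes. It was 0.20, 0.06 and 0.34 for the ligases, -0.29, 0.19 and 0.66 for the deubiquitinases, and 0.05, 0.21 and 0.31 for all tested genes. Over these tested genes, the Cdc48 and conjugating groups were above the ligase and deubiquitinase groups on every array. This order did not hold among members with values on 1 or 2 arrays. Their medians were 0.53 for 4 conjugating enzymes, 0.73 for 5 ligases and 0.50 for 4 deubiquitinases, with 1.77 for 1 Cdc48 factor. On array 3, over all measured members, medians were 1.54 for Cdc48 factors, 0.78 for conjugating enzymes, 0.55 for ligases and 0.73 for deubiquitinases. The groups hold 4 to 7 tested genes each, and the differences between them were not tested. Array 1 gave the lowest of the 3 values for 14 of the 23 members, and array 3 the highest for 14, in the same order as the medians of all genes.

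**Figure D3:**
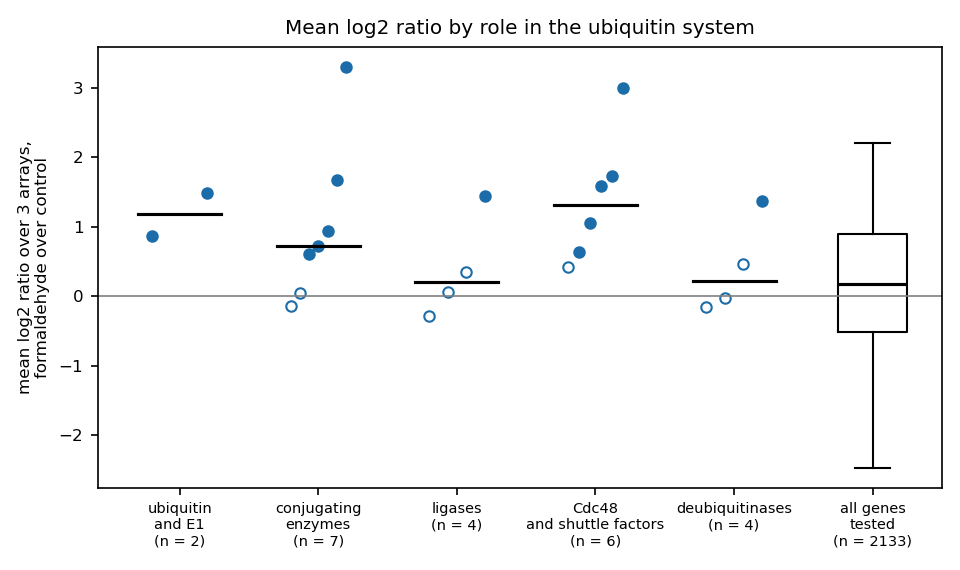
Mean log2 ratio over 3 arrays (y axis) for the 23 tested members by role; filled points passed adjusted p under 0.05, open points did not, and black lines are medians. The box shows the quartiles and median of all 2133 tested genes, with whiskers at the 5th and 95th percentiles. The medians of the Cdc48 factors (1.32) and conjugating enzymes (0.72) lie above those of ligases (0.20) and deubiquitinases (0.22).

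The same reading was made for 111 other genes of ubiquitin and ubiquitin-like pathways. Of these, 34 had values on all 3 arrays; 20 were higher, 3 lower and 11 did not pass, with a median of 0.77. Among all 2133 tested genes, 37.2% were higher and 25.3% lower, and the median was 0.18. The 3 that were lower were RPS31, RPL40B and YOS9. Against that 37.2%, 5 of 6 other E1, E2 and ubiquitin-like genes were higher, and 3 of 5 of the SCF and other cullin ligases. So were 2 of 3 of the anaphase-promoting complex, 4 of 4 other ligases and 2 of 3 Rsp5 adaptors. These last 3 lists hold 15, 19 and 14 genes, so most of their genes were not tested. With 2 arrays as minimum, 3 of 8, 5 of 8 and 3 of 8 were higher, where 30.3% of all genes were. Their genes on 1 or 2 arrays had medians of 0.06, 0.23 and 0.10, against -0.15 for all such genes. The SCF and cullin list holds 14 genes, of which 5 were tested, and with 2 arrays as minimum 4 of 6 were higher. Its 6 genes on 1 or 2 arrays had a median of -0.18. Of 17 other Cdc48, shuttle and ER degradation genes, 8 were tested, of which 4 were higher and 1 was lower. Neither of the 2 genes tested from the list of 16 other deubiquitinases and their regulators, UBP5 and BRO1, passed.

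The largest increases there were in MET30 and UBA4. MET30, the SCF subunit that recognises regulators of sulfur metabolism, had 2.44, 2.16 and 2.91 (mean 2.51 ± 0.38, limma adjusted p = 5.57e-05). UBA4, the E1-like enzyme of the Urm1 modifier, had 2.72, 2.62 and 2.16 (mean 2.50 ± 0.30, limma adjusted p = 4.22e-05). RAD6, an E2 of DNA damage tolerance and of the N-end rule, had 2.01, 1.34 and 1.77 (mean 1.71 ± 0.34, limma adjusted p = 0.00028). All 3 genes were above 1 on every array. Also among the 10 largest called changes were DOC1 (1.95 ± 0.84) and APC2 (1.89 ± 0.70) of the anaphase-promoting complex, the F-box gene SAF1 (1.70 ± 0.65), the Cdc48 cofactor UBX6 (1.56 ± 0.16) and the Golgi ligase TUL1 (1.53 ± 0.14).

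The third shuttle protein, RAD23, had 1.25, 1.37 and 1.06, a mean of 1.23 ± 0.16 (limma adjusted p = 0.000672), so that DDI1 and RAD23 were both higher on every array. Around the Hrd1 ligase, named after their values were seen, USA1, a scaffold of the complex, had 1.01, 1.10 and 1.09 (mean 1.07 ± 0.05, limma adjusted p = 0.00106), and YOS9, its sugar-reading factor, had -0.89, -0.81 and -0.60 (mean -0.77 ± 0.15, limma adjusted p = 0.00573). Parts of this complex were thus higher (USA1), near 0 (HRD1) and lower (YOS9) on all 3 arrays. RPN4, the transcription factor known for driving proteasome genes, had -0.36, 1.17 and 1.49 and did not pass (mean 0.76 ± 0.99, limma adjusted p = 0.094). Without array 1, its lowest, its mean was 1.33 and it passed (limma adjusted p = 9.42e-08). That fit leans more on the variance pooled over genes, so its p-value is not comparable with that over 3 arrays. RPN4 did not pass without array 2 (0.56, limma adjusted p = 0.177) or without array 3 (0.40, limma adjusted p = 0.441).

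**Figure D4:**
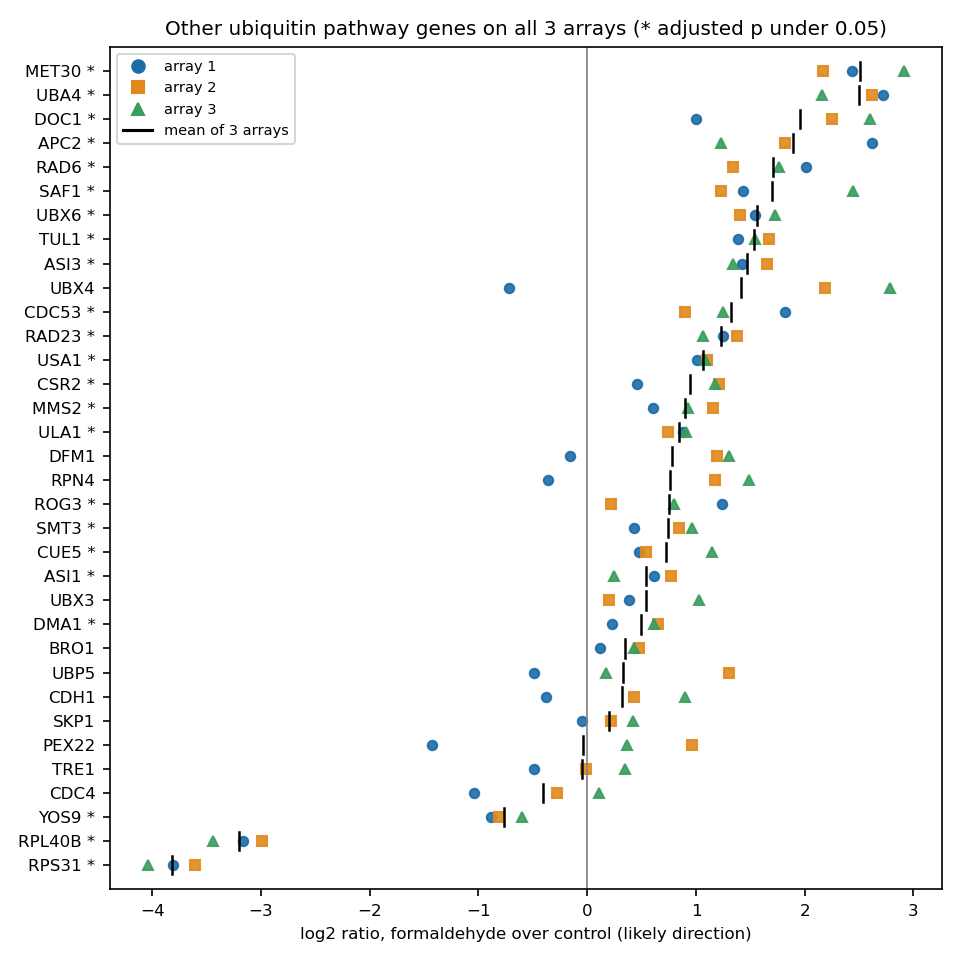
Log2 ratio of formaldehyde over control (x axis) on each array for the 34 other ubiquitin pathway genes with values on all 3 arrays, ordered by mean; black ticks are means and stars mark adjusted p under 0.05. MET30 and UBA4 lie above 2 on all arrays, RPS31 and RPL40B below -2.9, and several genes, among them UBX4, RPN4, DFM1 and PEX22, have array 1 below 0 and the other arrays above.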

How the data were processed

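Log2 ratios, 1 for each probe in each scan, were used as deposited; the authors applied LOWESS to unflagged spots, per the labels' descriptions. The image software and the array's build were not given in the sources used here. The lowest value, -6.64, equals the log2 of 0.01, which sets the log base. The platform annotation paired 5446 of 6912 probes with a single symbol, and the 5379 genes all matched RefSeq's gene table of assembly R64, used for systematic names and gene order. Each measured member had 1 probe.

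Probes were averaged per gene, then high and low power scans per array (or the scan present). A gene entered if all 3 arrays gave a value; the mean was tested against 0 by limma 3.58.1 under R 4.3.3 (residual degrees of freedom 2, prior 4.84), adjusted by Benjamini-Hochberg over 2133 genes. The code was tested on simulated data. Intervals are limma's 95% intervals and errors are SDs over arrays. Members, lists, roles and settings were chosen with earlier results of these data known. Every member is named; other pathway genes are named if they are RAD6, RAD23, RPN4 or a ubiquitin fusion gene, or among the 10 called genes of largest absolute mean. USA1, YOS9, UBX4, DFM1, PEX22, UBP5 and BRO1 lie outside that rule and were named after their values were seen. UBC10, an older name of PEX4, was counted once. Promoter motifs and protein identities had been planned and were not analysed here. The alternatives were each scan power alone, 6 scans blocked by array, 2 other centrings, scaling, 2 arrays as minimum, robust eBayes, single probes, a threshold of 0.01, and leaving out each array.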

Additional observations from a re-analysis of the deposited data

How the results depend on the processing

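The 14 higher calls among members stayed the same genes with high power scans alone, with 6 scans and the array as a random block, with scans centred on their median or scaled, with robust eBayes and with single probes. Centring without ribosomal protein genes gave 13 (CDC48 lost), where 33.1% of all tested genes were higher, and a threshold of 0.01 gave 10 (CDC34, CDC48, CUE1 and UBC8 lost), where 27.0% were. Low power scans alone gave 4 members a value on all 3 arrays, and all 4 were called higher. Of the 560 genes tested in those scans, 40.2% were higher and 31.8% lower. Other pathway genes tested there were 4, with 2 higher and 1 lower. With 2 arrays as minimum, 1 member was lower. Leaving out 1 array gave 11 to 16 members higher, 0 lower, where 28.8% to 41.7% of all genes were higher, and 16 to 27 other pathway genes higher with 3 lower. The fit without array 1 rested on 88.2 prior degrees of freedom and that without array 3 on 3.82, so their p-values are not comparable. Signs turned, without a call on either side, for HRD1 (-0.010 centred, -0.046 centred without ribosomal protein genes), UBC1 (-0.034 centred without ribosomal protein genes; -0.19 to 0.31 leaving out 1 array) and YUH1 (-0.14 to 0.15 leaving out 1 array). UBP2 ran between -0.014 without array 3 and 0.85 without array 1, where it was called. The causes were not tested. Scans of 1 array differed: the low minus high power ratio had a member median of -0.13, 0.21 and 0.26 on arrays 1, 2 and 3, and on array 3 the sign differed between powers for 3 of 12 members read at both.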

Other observations

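Several ubiquitin genes lie head to head with a neighbour that is transcribed away from them, by the order and strand letters of systematic names. Of 21 members with such a neighbour, 8 had a neighbour tested on all 3 arrays. DDI1 faces MAG1, a DNA glycosylase gene, which had log2 ratios of 2.41, 2.06 and 2.11 (mean 2.19 ± 0.19, limma adjusted p = 4.99e-05), so that both genes of the pair were above 2 on every array. HUL5 faces GPI10, a gene of membrane anchor synthesis, which had 1.15, 1.15 and 0.92 (mean 1.07 ± 0.14, limma adjusted p = 0.00118). BUL1 and DSK2, both members, face each other, and each was above 0 on the 2 arrays that measured it. Of the 4 called members with a tested neighbour, 2 had a neighbour that was also higher, where 37.2% of all tested genes were higher. The neighbour of UBC7, MAC1 (mean 0.06), and that of CDC34, PST1 (mean -0.01), did not pass. UBP15, with 0.43 and 1.45 on arrays 2 and 3, faces ADH2, which was lower with -3.42, -2.52 and -2.77. Also lower were PRS2, beside UBC6 (mean -0.50 ± 0.19, limma adjusted p = 0.0373), and DSE1, beside RSP5 (mean -1.01 ± 0.23, limma adjusted p = 0.00208), while SNF7, beside UBR2, was higher (mean 1.10 ± 0.46, limma adjusted p = 0.00366).

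Other genes were far apart between arrays. UBX4, a Cdc48 cofactor, had -0.72, 2.18 and 2.79, and DFM1, an ER membrane protein of the Der1 family, had -0.16, 1.19 and 1.31. In both, as in RPN4, array 1 was low. Neither passed with values averaged over the scans of each array (limma adjusted p = 0.0792 for UBX4 and 0.0562 for DFM1). DFM1 passed with 6 scans and the array as a random block (limma adjusted p = 0.0353), with scans scaled (0.0498) and with 2 arrays as minimum (0.035). UBX4 passed with 2 arrays as minimum (0.029), and robust eBayes gave it a limma adjusted p of 0.195. Neither gene passed without array 2 (limma adjusted p = 0.0556 for UBX4 and 0.142 for DFM1) or without array 3 (0.42 and 0.288). Without array 1 both passed, at a mean of 2.49 for UBX4 (limma adjusted p = 6.43e-18) and 1.25 for DFM1 (limma adjusted p = 4.06e-07). That fit leaves out the array on which both were lowest and rests on 88.2 prior degrees of freedom. Its p-values are thus not comparable with those over 3 arrays.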
